A study of Mus musculus with 663 samples.

Results

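The Hox cluster genes of the mouse were followed through somatic cells of XX gonads, from stage E10.5 (E for embryonic day) to stage P6 (P for day after birth). Members were genes of the expression table whose name joined Hox to a cluster letter and a paralogue group number, and 37 of the 43320 genes in the table are described. There were 10 genes of the Hoxa cluster, 10 of Hoxb, 9 of Hoxc and 8 of Hoxd. By paralogue group, 7 belonged to groups 1 to 3, 15 to groups 4 to 8, 7 to groups 9 to 10 and 8 to groups 11 to 13. In GENCODE vM21, an annotation of GRCm38, the members of Hoxa lay on chromosome 6 (52162417 to 52260880, minus strand), those of Hoxb on chromosome 11 (96194316 to 96368256, plus strand), those of Hoxc on chromosome 15 (102921103 to 103036852, plus strand) and those of Hoxd on chromosome 2 (74668310 to 74765142, plus strand).

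The 662 cells came from mice of mixed background that carried an Nr5a1-eGFP reporter. Nr5a1 encodes a nuclear receptor of the gonadal and adrenal somatic lineage, so eGFP-positive cells are the somatic cells that use this gene and not the whole gonad. Live eGFP-positive cells were sorted and captured on C1 microfluidic chips, and their polyadenylated RNA was sequenced after SMARTer amplification without molecular identifiers. A capture is 1 run of a chip, as the titles name it. E10.5 had 1 capture (71 cells) and E12.5 had 3, the other stages had 2 each, and captures after E10.5 held 40 to 66 cells, which made 12 captures. The capture was the replicate. Nothing in the labels ties captures to separate litters, and p-values therefore measure the spread between captures only, which may be technical. Levels are RPKM, reads scaled to gene length and to the reads of the cell, so levels of different genes are compared per length.

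Hox genes encode homeodomain transcription factors that give position along the body axis. In each cluster the genes stand in the order in which they act, from group 1 at the anterior end to group 13 at the posterior end, and posterior members switch on later and further back. The gonad arises from intermediate mesoderm of the trunk, beside the mesonephros, and Hox proteins bind DNA together with PBX and MEIS cofactors.

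In 11 captures the median estimated depth was 1.89 to 3.20 M reads per cell, and detected genes per cell went from a median of 7976 in the E10.5 capture to 3640 in the second P6 capture. The second E12.5 capture stood apart, with a median of 0.148 M reads, and 40 of its 53 cells held Y-linked transcripts although labelled XX. There, 1 RPKM of Hoxc8 was worth 0.418 of a read at the median depth, against 5.36 to 9.07 reads in the other captures. Nr5a1 was measured in every capture, at 13.9 to 72.8 RPKM. Summed levels of 3 endothelial markers were 0.0616 to 13.6 RPKM and those of 4 germ cell markers 0 to 4.94. Summed levels of 7 adrenal cortex markers were 59.4 RPKM in the E10.5 capture, 98.9 and 140.6 in those of E11.5, 16.7 to 98.1 in those of E12.5 and 0.182 to 6.57 in the captures from E13.5 on, so they were higher in the early captures, as many Hox genes were, and their part in the Hox levels was not tested. Mc2r, the corticotropin receptor, gave 52.5 of the 59.4 RPKM at E10.5, and the adrenal enzyme gene Cyp21a1 was at 0 in every capture. Reads of overlapping genes could not be separated where strand use is not given: 52.9% of the exon bases of Hoxb3 overlap the antisense Hoxb3os, and 53.1% of those of Hoxd3 overlap the gene model Gm28230 on the same strand.

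The stretches of 250 bases before the start of 3 Hoxd genes are shown because these genes of the same cluster differed in use. Hoxd8 was on at all 6 stages, Hoxd10 was on at 4 of them, and Hoxd13 was not detected in any cell. The sequences are from RefSeq (GRCm38.p6, plus strand), with matches to the searched motifs in capitals: Hoxd8 is chr2:74704365-74704614, Hoxd10 is chr2:74691641-74691890 and Hoxd13 is chr2:74667975-74668224.
Hoxd8: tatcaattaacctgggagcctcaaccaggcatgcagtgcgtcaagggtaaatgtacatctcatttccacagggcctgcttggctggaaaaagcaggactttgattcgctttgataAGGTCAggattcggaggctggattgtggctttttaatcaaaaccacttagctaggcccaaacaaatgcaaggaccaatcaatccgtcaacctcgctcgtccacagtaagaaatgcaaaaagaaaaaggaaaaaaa
Hoxd10: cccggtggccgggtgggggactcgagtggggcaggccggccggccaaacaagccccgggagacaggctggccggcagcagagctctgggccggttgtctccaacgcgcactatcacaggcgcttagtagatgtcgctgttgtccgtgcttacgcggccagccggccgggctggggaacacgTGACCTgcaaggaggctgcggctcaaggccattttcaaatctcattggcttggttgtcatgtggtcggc
Hoxd13: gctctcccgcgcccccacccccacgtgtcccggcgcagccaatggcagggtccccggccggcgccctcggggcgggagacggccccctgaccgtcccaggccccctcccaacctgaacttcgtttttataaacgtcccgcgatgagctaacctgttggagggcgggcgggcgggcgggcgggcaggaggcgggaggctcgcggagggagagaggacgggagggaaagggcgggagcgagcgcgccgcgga
Hoxd8 held 1 AGGTCA and Hoxd10 held 1 on the opposite strand, written TGACCT, a core sequence bound by retinoic acid receptors. Hoxd13 held no match to the motifs searched. Of the other Hoxd genes, Hoxd3 held AGGTCA and was on at no stage, and Hoxd4 held it and was on at 2. Hoxd9 held none and was on at 3 stages, and Hoxd1 and Hoxd12 held none and were on at no stage. Of 37 members, 21 had a promoter in the RefSeq table, and 4 motifs were searched on both strands in these and in all 32841 promoters. AGGTCA was in 6 of 21 (28.6%, Hoxb4, Hoxc4, Hoxd3, Hoxd4, Hoxd8 and Hoxd10) against 14% of all promoters. TTTATG, a sequence of the kind bound by CDX proteins, was in 4 of 21 (19%, Hoxa7, Hoxb8, Hoxd3 and Hoxd4) against 10.8%, and the PBX-HOX motif TGATNNAT in 3 of 21 (14.3%, Hoxa2, Hoxb1 and Hoxb8) against 7.69%. The homeodomain core TAATTA was in 0 of 21, against 4.84% of all promoters. GC content was 44.4% for Hoxd8, 65.6% for Hoxd10 and 74.4% for Hoxd13, against a median of 52.4% over all promoters. A match in 250 bases is a description and not a measured site.

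The E10.5 capture used most of the Hox complement, and few members were left on at P6. A gene was called on at a stage when its mean was at least 1 RPKM in every capture of that stage. By this rule E10.5 had 26 of the 37 genes on, E11.5 had 18, E12.5 had 8, E13.5 had 12, E16.5 had 4 and P6 had 2. Without the second E12.5 capture, the count at E12.5 was 12. At E10.5, 8 of the genes on were from Hoxa, 8 from Hoxb, 6 from Hoxc and 4 from Hoxd. The Hoxb cluster had 3 genes on at E11.5 and 0 from E12.5 to P6, and Hoxa had 5, 2, 3, 0 and 0 from E11.5 to P6. Hoxc kept 5 to 6 genes on up to E13.5, then 2 at E16.5 and 1 at P6. The genes on at E16.5 were Hoxc5, Hoxc8, Hoxd8 and Hoxd10, and those on at P6 were Hoxc8 and Hoxd8. E10.5 had 1 capture, and a stage with more captures has more ways to fail the rule.

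**Figure D1:**
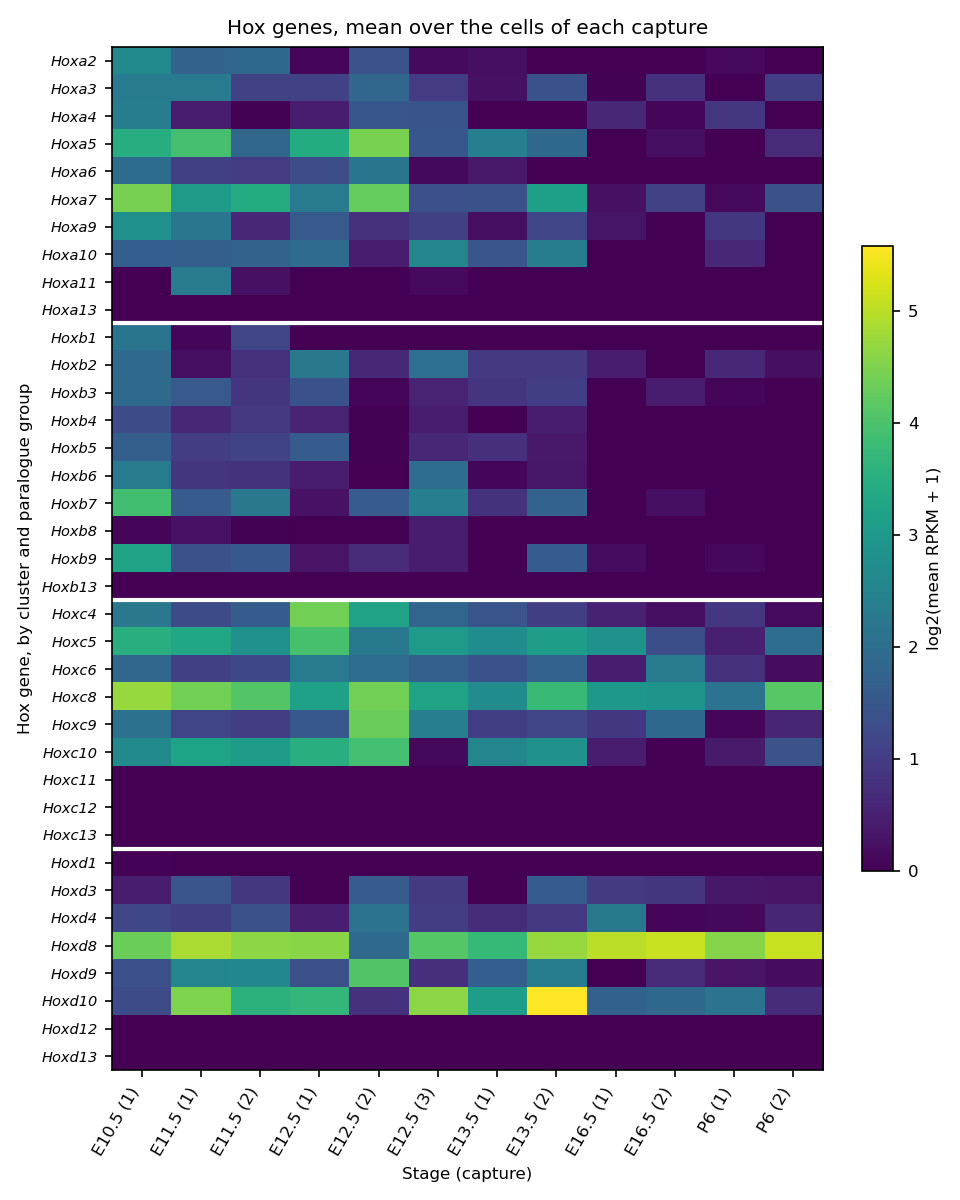
Mean level of each of 37 Hox genes over the cells of each of 12 captures, as log2(mean RPKM + 1) on the colour scale, with the clusters separated by white lines. Most rows of Hoxa and Hoxb are brighter at E10.5 than at E16.5 and P6, where they are dark. The Hoxd8 row is bright in every capture except the second at E12.5, and rows of groups 12 and 13 are dark throughout.

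Cells of later stages also held fewer Hox genes each. All 71 E10.5 cells held at least 1 Hox gene at 1 RPKM or more (100%, exact 95% interval 94.9 to 100.0%), with a median of 8 genes per cell and a highest of 16. Later shares were 93.4 ± 1.33% (SD, n = 2 captures) for E11.5, 83.5 ± 6.66% (n = 3) for E12.5, 81.1 ± 2.67% for E13.5, 75.1 ± 3.38% for E16.5 and 48.8 ± 0.429% for P6 (n = 2 each). The median number of genes per cell was 4 in both E11.5 captures, 2 to 3 in those of E12.5 and E13.5, 1 in those of E16.5 and 0 in those of P6. The median number of detected genes of any kind was highest in the E10.5 capture (7976) and lowest in the second P6 capture (3640), as these shares were. Between them the order differed in part. That median was 7249 and 7018 per cell in the E13.5 captures against 6505 and 6973 in those of E11.5. It was 4998 in the first P6 capture against 4870 and 4499 in those of E16.5. The part of detection in the shares was not tested. Intervals cover the counting error of cells only, since cells of 1 capture are not replicates of a stage.

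**Figure D2:**
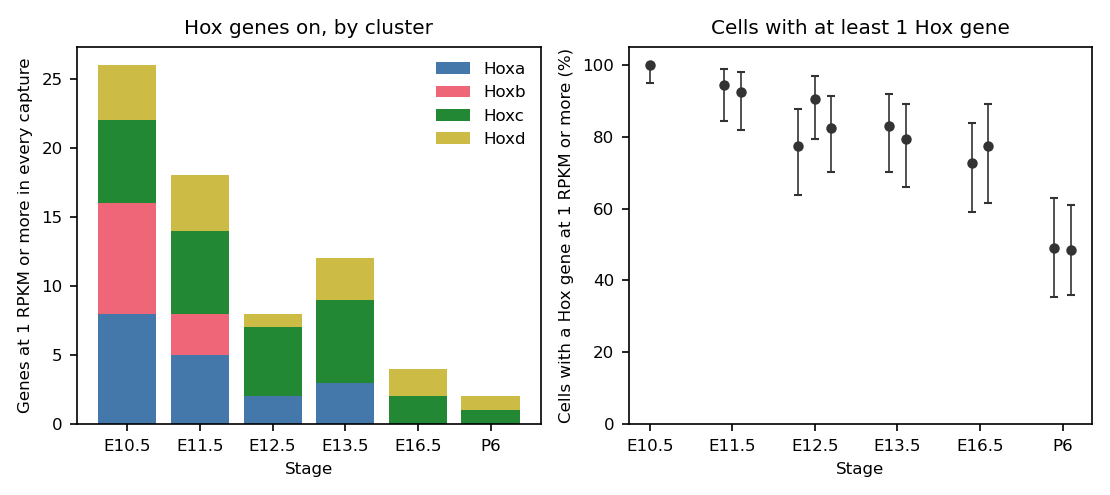
Left, the number of Hox genes with a mean of at least 1 RPKM in every capture of a stage, stacked by cluster. Right, the share of cells with at least 1 Hox gene at 1 RPKM or more, 1 point a capture with its exact 95% binomial interval: all 71 cells at E10.5, and 48.5% and 49.1% of cells in the P6 captures.

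Groups 1 to 3 hold the genes of the hindbrain and neck, and Hoxb1 was measured mainly at E10.5. Hoxb1, the most anterior gene of its cluster, was at 3.48 RPKM at E10.5, where 8 of 71 cells held it at 1 RPKM or more, and at 0.0606 and 1.23 at E11.5, where all of the second value came from 1 cell. Hoxb1 was at 0 in the 9 later captures. Hoxa2, a gene of hindbrain and neural crest patterning, was at 5.26 RPKM at E10.5 and at 2.45 and 2.70 at E11.5, and its highest later value was 1.68 in the shallow E12.5 capture. Hoxa3 reached 3.99 RPKM at E10.5 and was still at 1.06 in the second P6 capture, but at 0 in the first. Hoxd1 was above 0 in 1 of 662 cells.

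Groups 4 to 8, the genes of the trunk, held most of the members with high levels, although the highest capture mean of any member was that of Hoxd10 of group 10 (46.97 RPKM). Hoxa7 had 20.6 RPKM in the E10.5 capture, 7.33 and 9.79 in those of E11.5, 3.91, 18.2 and 1.56 in E12.5, 1.61 and 7.90 in E13.5, 0.189 and 1.14 in E16.5 and 0.0971 and 1.60 in P6. It was in 85.9% of E10.5 cells, the highest share of any member at that stage, and in 1.82% and 3.03% of cells at P6. Hoxa5 had 10.2 RPKM in the E10.5 capture, 14.4 and 2.59 in those of E11.5, 9.75, 20.9 and 1.80 in E12.5, 4.34 and 2.62 in E13.5, 0.00368 and 0.161 in E16.5 and 0 and 0.599 in P6. The Hoxa5 ranges up to E12.5 overlapped, while the E10.5 value of Hoxa7 lay above all its later captures. For both genes every E16.5 and P6 capture lay below the lowest value of the E10.5, E11.5 and E12.5 captures except the second P6 capture of Hoxa7. The E12.5 value of 20.9 for Hoxa5 owed 60.9% of its sum to 1 cell.

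Hoxb6 and Hoxb7, adjacent trunk genes of the Hoxb cluster, were highest at E10.5. Hoxb6 had 3.88 RPKM in the E10.5 capture, 0.789 and 0.758 in those of E11.5, 0.338, 0 and 3.004 in E12.5, 0.0742 and 0.289 in E13.5, and 0 in all 4 captures of E16.5 and P6. The third E12.5 capture was high through 1 cell, which gave 76.8% of the sum. Hoxb7 had 13.9 RPKM in the E10.5 capture, 2.06 and 3.68 in those of E11.5, 0.207, 2.03 and 4.35 in E12.5, 0.756 and 2.35 in E13.5, 0 and 0.170 in E16.5 and 0 in both P6 captures. At E10.5, 1 cell gave 51.1% of the Hoxb7 sum, and 43.7% of cells held Hoxb6 against 29.6% for Hoxb7. Hoxb8, the next gene along, never exceeded a capture mean of 0.373 RPKM.

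Hoxc8 and Hoxd8, the group 8 genes of the other clusters, stayed on throughout. Hoxc8 had 25.2 RPKM in the E10.5 capture, 20.1 and 15.9 in those of E11.5, 8.20, 19.9 and 8.34 in E12.5, 5.45 and 12.6 in E13.5, 6.83 and 6.39 in E16.5 and 3.38 and 16.6 in P6. Its highest P6 value rested on 1 cell of 839 RPKM, which gave 76.7% of the sum, and the share of cells with it was 77.5% in the E10.5 capture, 43.4% and 56.6% in those of E11.5, and 25.9 ± 5.79% (E16.5) and 10.6 ± 2.14% (P6) later (SD, n = 2 captures each). Hoxd8 had 19.2 RPKM in the E10.5 capture, 28.3 and 23.9 in those of E11.5, 22.99, 2.77 and 16.3 in E12.5, 12.4 and 25.5 in E13.5, 31.2 and 33.6 in E16.5 and 22.7 and 33.6 in P6. The stages overlapped for Hoxd8, and its share of cells was 43.7% at E10.5 and 19.9 ± 0.214% at P6. In P6 cells that held Hoxd8 at 1 RPKM or more, its mean was 113.5 and 171 RPKM, against 43.8 in such cells at E10.5. Together these 2 genes gave 15.6 to 37.05% of the summed level of all Hox genes in the captures up to E13.5 and 69.3 to 82.7% at E16.5 and P6.

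**Figure D3:**
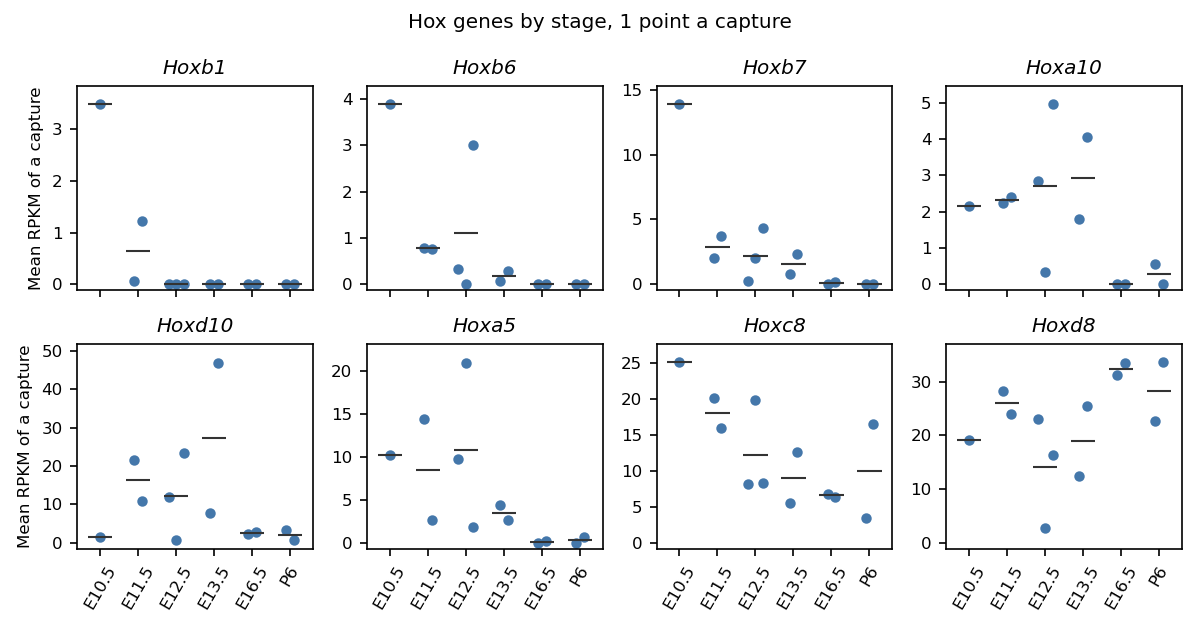
Mean RPKM of 8 Hox genes over the cells of each capture, 1 point a capture, with a line at the mean of each stage, and a separate linear scale for each gene. Hoxb1 is at 3.48 RPKM at E10.5 and at 0 from E12.5 on, Hoxb6 and Hoxb7 are at or near 0 at E16.5 and P6, and Hoxd8 lies between 22.7 and 33.6 RPKM at E16.5 and P6.

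Groups 9 and 10 held the most posterior genes that were on at any stage, and none of their genes was on at P6. Hoxd10 had 1.41 RPKM in the E10.5 capture, 21.5 and 10.9 in those of E11.5, 11.99, 0.740 and 23.4 in E12.5, 7.75 and 46.97 in E13.5, 2.32 and 2.69 in E16.5 and 3.38 and 0.640 in P6. It was low at E10.5, where 3 of 71 cells held it, and all of the first P6 value came from 1 cell. Hoxa10, a gene needed for the uterus and for lumbar identity, had 2.16 RPKM in the E10.5 capture, 2.24 and 2.42 in those of E11.5, 2.85, 0.348 and 4.95 in E12.5, 1.79 and 4.05 in E13.5, 0.00242 and 0 in E16.5 and 0.552 and 0 in P6. Its captures at E16.5 lay below all captures of the earlier stages. Hoxb9 was at 8.34 RPKM at E10.5 and at 0 to 2.10 in the other 11 captures. Hoxc10 was at 4.87 to 14.2 RPKM in the captures up to E13.5, apart from 0.0899 in the third E12.5 capture, and at 0 to 1.69 at E16.5 and P6.

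Groups 11 to 13, the genes of the most caudal trunk and tail, were not on at any stage. Hoxa13, Hoxb13, Hoxc11, Hoxc12, Hoxd12 and Hoxd13 were listed at 0 in all 662 cells, which allows a share of up to 0.453% of cells with a value above 0 (3 cells of 662, counting error only). Hoxc13 was above 0 in 1 cell. Hoxa11 was above 0 in 7 cells and had a mean of 4.01 RPKM in the first E11.5 capture, where 3 cells held it at 1 RPKM or more, against 0.182 in the second.

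The Hoxb and Hoxa clusters had the lowest summed levels late, and Hoxd the highest. For Hoxb, E10.5 summed to 38.9 RPKM, E11.5 to 9.78 ± 2.02 (SD over captures), E12.5 to 8.19 ± 4.69, E13.5 to 5.28 ± 2.92, E16.5 to 0.523 ± 0.0330 and P6 to 0.443 ± 0.367, with n = 3 captures for E12.5 and n = 2 for the later stages and E11.5. For Hoxa, E10.5 summed to 55.2 RPKM, E11.5 to 29.9 ± 13.48, E12.5 to 27.9 ± 19.5, the E13.5 captures to 8.55 and 17.5, E16.5 to 1.55 ± 0.785 and P6 to 2.86 ± 0.574. For Hoxd, E10.5 summed to 23.85 RPKM, E11.5 to 49.97 ± 10.8, E12.5 to 34.6 ± 9.12, E13.5 to 51.25 ± 40.03, E16.5 to 37.95 ± 0.328 and P6 to 30.9 ± 5.97. All 4 captures of E16.5 and P6 lay below every earlier capture for Hoxa and for Hoxb, while the Hoxd ranges overlapped.

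Stage differences were tested with limma on log2(capture mean RPKM + 1) over all 19710 genes that reached 1 RPKM in at least 1 capture, with terms for stage and for the 2 series of sample titles, at a Benjamini-Hochberg adjusted p of 0.05. Of the 37 members 28 were tested, and 2 of these reached 1 RPKM in a single capture, Hoxa11 in the first of E11.5 and Hoxb4 in that of E10.5. From E10.5 to E11.5, limma called 0 of 28 members, against 0.969% of all genes (0.873% lower at E11.5), with 5 members at an unadjusted p under 0.05. Here and below, counts at an unadjusted p or with a difference below 0 stand without the share of all genes unless it is stated. They are therefore a description and not a result about Hox genes in particular. A gene that passes the filter through the E10.5 capture alone had to differ there, and 191 of the 285 genes called from E10.5 to P6 exceeded 1 RPKM in 1 capture alone. Among members that were on, Hoxd10 had the largest log2 difference (2.77 ± 1.42 SE, adjusted p = 1), then Hoxa4 (-2.13 ± 0.58, adjusted p = 0.356) and Hoxb7 (-1.98 ± 0.72, adjusted p = 0.774). The median over the 28 members was -0.66, against 0.00 over all genes.

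Between the later stages no member passed either. From E11.5 to E13.5, limma called 0 of 28 members and 0% of all genes, with 2 members at an unadjusted p under 0.05. From E13.5 to E16.5 it called 0 of 28 members against 0.528% of all genes (0.507% lower at E16.5), with 5 members at an unadjusted p under 0.05. The largest fitted differences there were Hoxd10 (-4.91 ± 1.83, adjusted p = 0.589) and Hoxa10 (-3.29 ± 0.96, adjusted p = 0.386). These 2 stages lie in different series of sample titles, and the measured differences were -2.55 for Hoxd10, -1.91 for Hoxa10 and -2.51 for Hoxc10, whose fitted value was 1.09. From E16.5 to P6 it called 0 of 28 members against 0.289% of all genes (0.0863% lower at P6), and 0 had an unadjusted p under 0.05. Hoxd8 differed by -0.22 ± 0.81 (adjusted p = 1) between these 2 stages.

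From E10.5 to P6, Hoxb6 passed, 1 of 28 members against 1.45% of all genes (1.26% lower at P6). Hoxb6 changed by -4.08 ± 0.46 (adjusted p = 0.0121), and Hoxb7 missed the threshold at -5.38 ± 1.02 (adjusted p = 0.0637). Of the 28 members 25 had a log2 difference below 0, and the median of the 28 was -1.48 against -0.11 over all genes. The stages lie in different series of sample titles, joined through the E12.5 captures alone, so the fitted change of Hoxb6 exceeds the measured difference of -2.29. That series term rests on the third E12.5 capture, where 1 cell gave most of the Hoxb6 level. It sets this capture against the first and the shallow second of E12.5, and Hoxb6 was at 0 in the second. At the median depth of the second, 1 RPKM of Hoxb6 was worth 0.290 of a read. Without the series term Hoxb6 was not called (-2.29, adjusted p = 0.205) and Hoxb1 (-2.16, adjusted p = 0.0426) and Hoxb9 (-3.16, adjusted p = 0.0486) were. Hoxc10 had a fitted difference of 1.83 and a measured one of -1.76, and the sign also depended on this term for Hoxc4 (0.30 and -1.68), Hoxd9 (0.83 and -1.12), Hoxd8 (-0.35 and 0.51) and Hoxd10 (-2.21 and 0.15). Over all stages, Hoxb6 (adjusted p = 0.0441) passed the F test, 1 of 28 against 1.37% of all genes. With genes required to reach 1 RPKM in at least 2 captures, limma called 0 of 26 members in any of these comparisons. From E10.5 to P6, 6 of the 26 had an unadjusted p under 0.05 in that fit, against 1360 of 16882 genes.

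The mean of log2 values over cells, which weighs the number of cells with a gene more than the level in its highest cell, gave more calls. From E10.5 to P6 it called 11 of 28 members, all lower at P6, against 5.16% of all genes lower. These were Hoxa4, Hoxa5 and Hoxa9, Hoxb1, Hoxb4, Hoxb5, Hoxb6, Hoxb7 and Hoxb9, and Hoxc4 and Hoxc8. The largest was Hoxc8 at -3.07 ± 0.47 (SE, adjusted p = 0.0169), then Hoxa5 at -1.64 ± 0.36 (adjusted p = 0.0409). Hoxb4 passed the filter through the E10.5 capture alone (1.46 RPKM). A lower level at P6 was thus set by the filter, and its call is no result. No member of Hoxd was called in that analysis. From E10.5 to E11.5 it called 5 of 28 members (Hoxa4, Hoxb1, Hoxb5, Hoxb6 and Hoxb9), all lower at E11.5, against 2.17% of all genes lower. Each of these changes runs with the number of detected genes per cell, whose part was not tested.

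The E10.5 sort held cells with nephric transcripts, and the mean levels of several Hox genes differed between them and the rest. Of 71 cells, 37 held Lhx1, Pax2 or Pax8, transcription factors of the nephric lineage, at 1 RPKM or more. Summed levels of 6 nephric markers were 58.3 RPKM at E10.5 and 0.00139 to 11.2 in the other captures, with 2 of the 6 at 0 at E10.5. In cells with a nephric marker, Hoxb7 was at 23.2 RPKM against 3.75 in the other 34 cells, Hoxb6 at 5.66 against 1.95, Hoxb1 at 6.26 against 0.458 and Hoxc10 at 9.67 against 0.776. The highest cell with a marker had 503.5 RPKM of Hoxb7, and without it the mean was 9.86. Without the highest cell of each group, means were 3.47 and 1.13 for Hoxb6, 3.86 and 0.0573 for Hoxb1, and 6.80 and 0.104 for Hoxc10. Hoxa2 was lower in cells with a marker, at 1.08 against 9.80 RPKM, and at 0.222 against 4.195 without the highest cell of each group. Hoxd8 was at 10.3 RPKM against 28.8, but 1 cell of 652.2 RPKM without a marker decided this, and without that cell the 2 means were 10.3 and 9.94. Hoxc8 had 25.98 RPKM in cells with a marker and 24.4 in the others, and Hoxa7 had 21.2 and 19.9. All these cells came from 1 capture, so no test was made, and the part of nephric cells in the E10.5 levels was not tested.

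The Meis genes, cofactors of Hox proteins, were measured at every stage. Meis1 had 65.9 RPKM in the E10.5 capture and 29.99 and 10.03 in those of P6, and Meis2 had 20.02 in the E10.5 capture and 0.216 and 1.01 in those of P6. Of 8 cofactor genes tested, limma called 0 from E10.5 to P6, with 3 at an unadjusted p under 0.05, among them Meis2 (-4.03 ± 1.01, adjusted p = 0.147). The mean of log2 over cells called 4 of the 8, all lower, against 5.16% of all genes lower. Of 22 regulators of the clusters that were tested, limma called 0, with 3 at an unadjusted p under 0.05. These were the Polycomb genes Cbx2 (-4.17 ± 1.01, adjusted p = 0.133) and Ezh2 (-1.99 ± 0.70, adjusted p = 0.350), and Aldh1a2, which makes retinoic acid (-2.56 ± 1.01, adjusted p = 0.443). Cbx2 was at 6.72 RPKM at E10.5 and 0.0285 and 0.0290 at P6. Of 9 noncoding RNAs of the clusters that were tested, 0 were called and 1 had an unadjusted p under 0.05, Hoxaas2 of the Hoxa cluster (-2.75 ± 0.85, adjusted p = 0.262), at 9.44 RPKM at E10.5 and 0.00266 and 0.145 at P6. Evx2, Hottip and Cdx4 were listed at 0 in every capture.

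Cells with Foxl2, which marks the supporting lineage, were set against cells with Nr2f2, which marks the stroma and its progenitors. With cells of 1 gene only, at 1 RPKM or more, 2 captures held at least 5 cells of both classes: the first of E16.5 (6 and 36 cells) and the second of P6 (9 and 22 cells). Within these captures limma tested 4 members and called 0, against 0% of 11068 genes, with 1 member at an unadjusted p under 0.05. Hoxc5 had the largest difference (-2.94 ± 1.11, adjusted p = 0.384). Hoxd8 was at 18.9 and 14.2 RPKM in the Foxl2 class and 32.5 and 30.5 in the Nr2f2 class (log2 difference -0.91 ± 0.94, adjusted p = 0.852). A wider comparison was therefore added after the class sizes were seen, of cells with Foxl2 at any Nr2f2 level against cells with Nr2f2 alone. It used 8 captures, from E12.5 to P6, with 7 to 41 cells in the Foxl2 class and 16 to 50 in the Nr2f2 class, and left out the second E12.5 capture.

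Hox levels were lower in the Foxl2 class for most members, and none passed the test. The summed Hox level was lower in the Foxl2 class in 6 of the 8 captures, the exceptions being the third E12.5 capture (186 against 78.6 RPKM) and the second P6 capture (50.2 against 49.2). Of 37 members 21 were tested, and limma called 0, against 0.0298% of 16754 genes, with 5 members at an unadjusted p under 0.05. Of the 21, 20 had a log2 difference below 0, with a median of -0.74 against -0.12 over all genes. The shares of all genes below 0 or at an unadjusted p under 0.05 are not given beside these counts. Hoxb9 was the exception, at 0.41 ± 0.39 (adjusted p = 0.765).

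Hoxd8 had the largest difference, and it was widest at E12.5. In captures 1 and 3 of E12.5 Hoxd8 was at 0.0333 and 0.0782 RPKM in the Foxl2 class and at 27.1 and 18.5 in the Nr2f2 class. There, 0 of 8 and 0 of 7 Foxl2 cells held it at 1 RPKM or more, which allows shares of up to 37.5% and 42.9%, against 16 of 45 and 11 of 50 Nr2f2 cells. E13.5 captures had 6.55 and 5.14 against 16.1 and 31.7 RPKM, those of E16.5 had 9.51 and 23.2 against 32.5 and 40.3, and those of P6 had 15.3 and 37.8 against 45.6 and 30.5. It was lower in the Foxl2 class in 7 of 8 captures, the second P6 capture being the exception, with a log2 difference of -2.02 ± 0.53 (SE, adjusted p = 0.272). In the 6 captures with at least 10 cells of both classes the difference was -1.21 (adjusted p = 0.570). With each cell put in the class of the gene with the larger RPKM, which left 5 captures from E13.5 on, Hoxd8 was lower in 5 of 5 (-2.90, adjusted p = 0.152). A test of whether the class difference varied between stages gave an unadjusted p of 0.0188 and an adjusted p of 0.652 for Hoxd8. No member passed that test, 0 of 21 against 0% of all genes, with 3 at an unadjusted p under 0.05.

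Genes of groups 9 and 10 differed among themselves between the classes, and none passed the test. Hoxa10 was at 0, 0, 0.0881 and 0.0538 RPKM in the Foxl2 class of the E12.5 and E13.5 captures and at 3.36, 5.65, 2.82 and 6.11 in the Nr2f2 class. It was lower in 5 of 8 captures and listed at 0 in both classes of the other 3 (log2 difference -1.37 ± 0.41, adjusted p = 0.310). Hoxd9 was lower in 7 of 8 captures (-0.78 ± 0.32, adjusted p = 0.454), with 1.10 against 5.29 RPKM in the second E13.5 capture and 0 in both classes of the first E16.5 capture. Hoxa9 was lower in 5 of 8 (-0.77 ± 0.33, adjusted p = 0.469). Hoxd10 was lower in 5 and higher in 3 captures, Hoxc9 lower in 4 and higher in 4, and Hoxc10 lower in 3 and higher in 4. Their mean log2 differences were -0.74 (Hoxd10), -0.035 (Hoxc9) and -0.034 (Hoxc10). Of the anterior genes, Hoxa3 was lower in 7 of 8 (-0.65 ± 0.28, adjusted p = 0.478). Hoxc8 was lower in 7 of 8 captures (-0.72 ± 0.52, adjusted p = 0.670), the exception being the first P6 capture, with 3.57 against 0.0509 RPKM. The number of detected genes was higher in the Foxl2 class in all 8 captures, from a median of 7152 against 7016 in the second E13.5 capture to 5360 against 4100 in the second E16.5 capture.

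**Figure D4:**
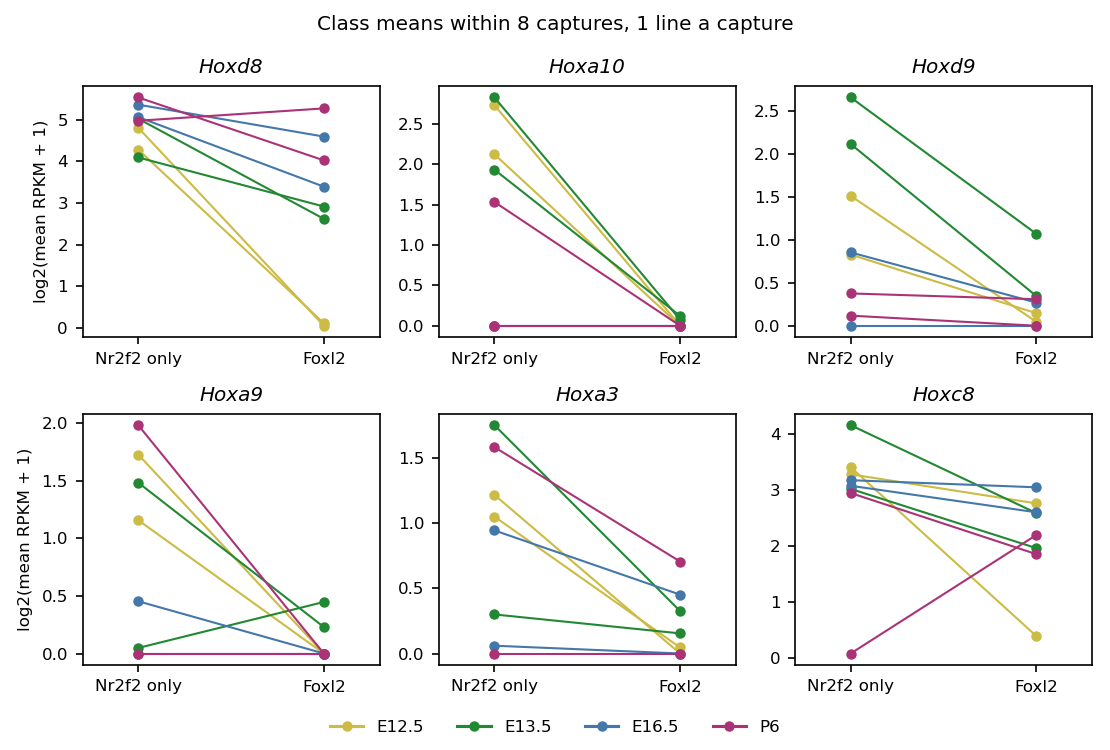
Class means of 6 Hox genes as log2(mean RPKM + 1) in 8 captures, 1 line a capture coloured by stage, from cells with Nr2f2 and no Foxl2 (left) to cells with Foxl2 (right). Hoxd8 is near 0 in the Foxl2 class of both E12.5 captures and higher in the Foxl2 class in 1 P6 capture, and Hoxa10 is at or near 0 in every Foxl2 class.

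The classes differed in markers as well. Fst, a supporting-cell gene, was higher in the Foxl2 class in 7 of 8 captures, for example 161.8 against 8.98 RPKM in the second E13.5 capture, and nearly equal in the first P6 capture (38.1 and 38.4). Nr2f2 itself was at 10.2 to 241 RPKM in the Foxl2 class, so the wider class held cells with both genes. Dcn, a stromal gene, was at 0 to 1134 RPKM in the Foxl2 class, and higher there than in the Nr2f2 class in the second E16.5 capture and both P6 captures. Tcf21, another stromal gene, was lower in the Foxl2 class of those captures (136.7 against 187.8, 178.4 against 278.0 and 284.6 against 388.6 RPKM). It was higher there in the third E12.5 capture (101.3 against 41.8). Amh, a granulosa gene, was at 6.39 against 7.55 RPKM in the first P6 capture and 8.01 against 2.07 in the second. At P6 the wider Foxl2 class therefore held stromal transcripts, and the part of mixed cells in the class values was not tested. The 3 cofactors at an unadjusted p under 0.05 in the same comparison, all lower in the Foxl2 class and none called, were Meis1 (-1.23 ± 0.44, adjusted p = 0.379), Meis2 (-1.42 ± 0.52, adjusted p = 0.396) and Meis3 (-1.35 ± 0.54, adjusted p = 0.446).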

How the data were processed

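Single cells of XX gonads were measured in 663 libraries, of which 1 cell's repeat library was averaged with its first. The deposited table names no unit. Its values were taken as RPKM, reads the authors divided by exon length and by the reads of the cell, inferred from the values as deposited: a median of 72.4% of low values per cell gave whole reads (within 0.02). Of the 38 low values of Hoxa7 and the 9 of Hoxa2, 0% gave whole reads, against 100% for each other member with low values. The exon lengths used here therefore did not match the values of Hoxa7 and Hoxa2. Per the submitters' processing notes the build was GRCm38.p3 (mm10). Aligner, counter and strand use: not given in the sources used here. Of 43347 rows, 27 with names turned into dates were left out.

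Capture means were fitted with limma 3.58.1 in R 4.3.3 (trend, pseudocount 1 RPKM, 5 residual degrees of freedom, Benjamini-Hochberg over all genes tested), after a check on simulated data. E10.5 took its spread from the other stages. Classes were compared with the capture as block. Members and lists were chosen with earlier results of these data known. Every member could be named, together with the called genes and the 3 largest uncalled differences of members on at a stage. Alternatives were the pseudocount, filter, per-cell log mean, rescaling, series term, class rules and each capture left out. Doublets were not called. Some genes of the clusters and lists are not reported here.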

Additional observations from a re-analysis of the deposited data

How the results depend on the processing

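Numbers of Hox genes called moved with the filter and the summary, and the cause was not tested where the setting does not show it. From E10.5 to E11.5 (0 called) no filter gave 2, against 3.71% of all genes, and the mean of log2 over cells 5, against 2.26%. From E13.5 to E16.5 (0 called) no filter gave 1, against 2.1% of all genes. From E10.5 to P6 (1 called, against 1.45% of all genes) no filter gave 3 (against 5.33%), among them Hoxd1, above 0 in 1 cell, a filter of 1 RPKM in at least 2 captures 0 (against 0.0296%), the mean of log2 11 (against 5.55%), and no series term, cells rescaled to 1 total and cells of at least 3000 detected genes 2 each. Over all stages (1 called, against 1.37% of all genes) a pseudocount of 0.1, the filter on 2 captures (against 0.0889%) and no series term gave 0 each. There the mean of log2 gave 5 (against 2.48%) and at least 3000 genes 2. Where no share of all genes stands beside a count, here or for captures left out, the count is no result about Hox genes in particular. Leaving out 1 capture at a time gave 0 to 2 from E10.5 to E11.5 (2 without the second E11.5 capture), 0 to 1 from E11.5 to E13.5 (1 without either E11.5 capture), 0 to 2 from E13.5 to E16.5 (2 without the first E12.5 capture), 1 to 3 from E10.5 to P6 (3 without the first or the second E12.5 capture, 2 without any 1 capture of E11.5 or E13.5) and 0 to 3 over all stages (0 without E10.5 or either E16.5 capture, 2 without E11.5 capture 1 or E12.5 capture 2, 3 without E11.5 capture 2 or E12.5 capture 1). From E10.5 to P6, 10 of 12 captures could be left out, since E10.5 and the third E12.5 capture hold the fit together. Of 503 values of named Hox genes, 2 lost a call, 22 gained one, 13 changed sign and the rest kept their direction and side of the threshold. Hoxc4, not called, changed sign from E13.5 to E16.5 with the mean of log2 (-0.62), no series term (-0.88) and cells of at least 3000 detected genes (-0.35, added after seeing the data), and from E10.5 to P6 with a pseudocount of 0.1 (-0.71), the mean of log2 (-1.30), no series term (-1.68), at least 3000 genes (-1.07), without E12.5 capture 1 (-0.29) and without P6 capture 1 (-0.06), within a range of -0.29 to 0.89 over captures left out. From E16.5 to P6, Hoxd10 ranged from -1.09 to 0.32 (without P6 capture 2) and Hoxd8 from -0.49 to 0.055 (without P6 capture 1) over captures left out. Hoxc8 between the exclusive classes (0.46) came to -0.72 in the wider class and -0.90 in the class of the larger gene, both added after seeing the data. At 5 RPKM the genes on numbered 10 for E10.5, 6 for E11.5, 1 for E12.5, 4 for E13.5, 2 for E16.5 and 1 for P6, and at 0.5 RPKM 13 for E12.5. Counting any value above 0, shares of cells with a Hox gene were 96.2% for E11.5, 93.2% for E12.5, 92.5% for E13.5, 80.3% for E16.5 and 58.3% for P6.

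Without the capture as replicate block, the class comparison called 0 Hox genes, as it did with the block (1 at an unadjusted p under 0.05 in limma with the block). The block changed no other call. For the exclusive classes, leaving out a capture, at least 10 cells a class and the comparison between stages had no fit with 2 captures. E10.5 had 1 capture, so its spread is that assumed from the other stages. At the depth of the second E12.5 capture 1 RPKM of Hoxc8 was worth 0.418 of a read.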

Other observations

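Within captures, Hox genes of a cluster varied together from cell to cell slightly more than Hox genes of different clusters. Genes at 1 RPKM or more in at least 20% of the cells of a capture were used. Each pair entered the mean for every capture where both genes passed. The mean Spearman rho was 0.164 for 9 pairs listed as neighbours in a cluster and 0.123 for 21 other pairs of a cluster. Pairs of different clusters had a mean of 0.0345. Neighbours were listed by annotated gene start, which put Hoxc5 beside Hoxc9 and Hoxc4 beside Hoxc6. Hoxc4 with Hoxc5, Hoxc5 with Hoxc6 and Hoxd4 with Hoxd8 were thus among the other pairs. The means of listed neighbours and other pairs therefore do not compare true neighbours with the rest. The highest mean was 0.473 for Hoxd9 and Hoxd10 over 2 captures, and Hoxd8 and Hoxd9 had 0.346 over 4. These are weak correlations across cells that share a chip and a depth, given as a description without a test.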
